A study of Mus musculus with 8 samples.

Results

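The p53 target genes described here are 10 genes that the transcription factor p53 activates, taken by name: Cdkn1a, Mdm2, Ccng1, Trp53inp1, Bax, Bbc3, Pmaip1, Fas, Phlda3 and Zmat3. All 10 were found by Ensembl identifier among the 52636 genes of the count table. Of them, 9 were among the 18321 genes that passed the filter on low counts; Fas did not. After 4 h of 4-hydroxytamoxifen (4OHT), which switches on ERK signalling in these embryos, Mdm2, Ccng1 and Pmaip1 rose and Bax fell in the epiblasts of clone 8. There, 16.6% of all tested genes were called. These calls did not all hold when a library was left out, and none held in a fit of clone 8 alone. The part of other tissue layers in these changes was not tested. None of the 9 tested genes was called in clone 4, where only 0.0382% of all tested genes were called.

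p53, encoded by Trp53, is held at a low level by the ubiquitin ligase Mdm2, which is itself a p53 target, so that the pathway carries its own negative feedback. When p53 is stabilised, by DNA damage or by oncogenic signalling through Ras, Raf and ERK, it binds DNA and raises genes for cell cycle arrest (Cdkn1a), for death through mitochondria (Bax, Bbc3, Pmaip1) or death receptors (Fas), and for its own restraint (Mdm2, Ccng1). The early post-implantation epiblast, the tissue that forms the body of the embryo, is known for its fast divisions and its readiness to lose damaged or less fit cells by apoptosis.

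RNA was sequenced from mouse epiblasts at embryonic day 5.5 of the genotype Sox2Cre;CRAFR26, in a series on the transcriptional response to ERK. The construct is an inducible form of the kinase cRAF, Sox2Cre drives recombination in the epiblast, and all groups carried both alleles. The mouse line was made by injecting targeted embryonic stem cells into morulas, and 2 clones, clone 4 and clone 8, were used. The 4 groups were vehicle (ethanol) and 250 nM 4OHT in clone 4, and the same in clone 8, with 2 libraries each. Embryos were cultured in IVC2 medium, the extraembryonic layers were cut away, and each library held the RNA of a pool of 10 epiblasts. A clone is 1 line, and the labels do not say whether the pools of 1 group came from different litters, so the p-values measure the spread between these pools. Vehicle libraries are titled 0 h, whereas their treatment label gives 4 h in vehicle; if these embryos were never cultured, the effect of 4 h in culture is part of every comparison.

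Total counts ran from 33.3 M to 38.0 M (M, mega) in the vehicle groups and from 56.4 M to 72.5 M in the 4OHT groups, so depth did not overlap between conditions. Levels are given as CPM, counts per 1 M of the library size after TMM scaling. The epiblast identity was checked on 8 markers (among them Pou5f1, Sox2 and Utf1), none of which was at 0 in any library. They summed to between 4996 and 5472 CPM in the vehicle libraries and to between 4283 and 4784 CPM in the 4OHT libraries, without overlap. Markers of the layers removed by dissection were present as well and differed between the groups. The 12 visceral endoderm markers (among them Ttr, Amn and Hnf4a) summed to 348 and 593 CPM in vehicle clone 4, 1654 and 1672 CPM in 4OHT clone 4, 1446 and 1543 CPM in vehicle clone 8, and 324 and 867 CPM in 4OHT clone 8. The 8 extraembryonic ectoderm markers (among them Elf5, Cdx2 and Bmp8b) summed to 192 and 235 CPM in vehicle clone 8 and to between 473 and 680 CPM in the other 6 libraries. Markers of decidua and blood summed to between 7.88 and 15.3 CPM, and 1 to 4 of these 7 genes were at 0 in a library. Mitochondrially encoded genes took 1.19% and 1.35% of the counts in 4OHT clone 8 and 0.205% to 0.619% in the other libraries. Of 20 early ERK response genes, 10 rose and Spred1 fell in clone 8, against 8.00% and 8.60% of all tested genes. Egr1, Fosl1, Ier2, Myc, Fos, Egr3, Dusp6 and Spry4 had the lowest p-values of those that rose. In clone 4, 0 were called by edgeR (0.0382% of all tested genes), with 5 at an unadjusted p under 0.05 (9.90% of all).

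p53 binds 2 copies of a 10-base half-site, separated by a short spacer, and the promoter sequences of the members were searched for exact matches to its consensus. RefSeq promoters of GRCm38.p6, each 250 bases before to 50 bases after an annotated start, were used for 7 of the 10 members, which have 10 such promoters. Pmaip1, Trp53inp1 and Zmat3 were not searched, and Pmaip1 was among the genes called in clone 8. The 4 promoters printed here hold at least 1 half-site. Of their genes, Mdm2 and Ccng1 rose, Bax fell and Cdkn1a was not called in clone 8, where 16.6% of all tested genes were called. Whether half-sites go with the response was not tested. Each is printed in the direction of transcription, and capitals mark the half-site.
Cdkn1a, chr17:29090729-29091028, plus strand: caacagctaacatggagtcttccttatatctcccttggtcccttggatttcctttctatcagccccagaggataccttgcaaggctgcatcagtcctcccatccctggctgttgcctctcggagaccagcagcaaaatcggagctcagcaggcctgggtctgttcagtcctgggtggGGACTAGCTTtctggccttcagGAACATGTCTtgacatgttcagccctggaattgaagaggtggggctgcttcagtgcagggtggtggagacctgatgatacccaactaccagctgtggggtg
Mdm2, chr10:117710709-117711008, minus strand: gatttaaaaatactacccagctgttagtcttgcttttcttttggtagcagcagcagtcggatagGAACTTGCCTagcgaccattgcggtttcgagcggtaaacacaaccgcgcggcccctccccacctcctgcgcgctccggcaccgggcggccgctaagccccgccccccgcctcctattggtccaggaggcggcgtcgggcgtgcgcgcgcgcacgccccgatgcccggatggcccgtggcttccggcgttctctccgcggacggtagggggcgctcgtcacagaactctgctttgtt
Ccng1, chr11:40755237-40755536, minus strand: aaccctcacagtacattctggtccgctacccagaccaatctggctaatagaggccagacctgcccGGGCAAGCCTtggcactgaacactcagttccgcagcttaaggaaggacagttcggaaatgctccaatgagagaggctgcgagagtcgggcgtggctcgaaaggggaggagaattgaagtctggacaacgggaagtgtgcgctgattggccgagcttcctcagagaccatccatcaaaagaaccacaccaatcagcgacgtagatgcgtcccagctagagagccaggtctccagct
Bax, chr7:45466849-45467148, minus strand: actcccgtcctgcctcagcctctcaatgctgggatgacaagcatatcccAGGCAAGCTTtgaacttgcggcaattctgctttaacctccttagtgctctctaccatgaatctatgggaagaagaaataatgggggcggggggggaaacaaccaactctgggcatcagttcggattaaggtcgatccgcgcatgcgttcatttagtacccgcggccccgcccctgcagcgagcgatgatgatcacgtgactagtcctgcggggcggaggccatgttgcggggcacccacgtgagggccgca

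In the Cdkn1a promoter printed above, that of the upstream start, the half-sites began 73 and 51 bases before the start. Together they formed the only pair of exact matches, with a spacer of 0 to 13 bases, among the member promoters searched. Such a pair was found in 24 of 32851 promoters of the same length, or 0.0731%. The bases directly after the second Cdkn1a half-site, tgacatgttc, depart from the consensus in their first letter and were not marked. Another Cdkn1a promoter, at chr17:29093519-29093818, held 0 motif matches. The single half-site of Mdm2 began 186 bases before the start, that of Ccng1 185 bases and that of Bax 201 bases before it. At least 1 half-site was present in 8.36% of all promoters. The AP-1 motif TGANTCA, bound by Fos and Jun proteins, matched in the Fas promoter and in 7.81% of all promoters. The EGR motif GCGNGGGCG matched in 2 of the 3 Bbc3 promoters and in 5.55% of all. Neither the ETS motif CCGGAAGT (3.89% of all promoters) nor TATAAA (13.6%) matched in a member promoter that was searched. Both strands were searched. A match is a description of the letters in this window and not of binding, and sequence outside the window was not searched.

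**Figure D1:**
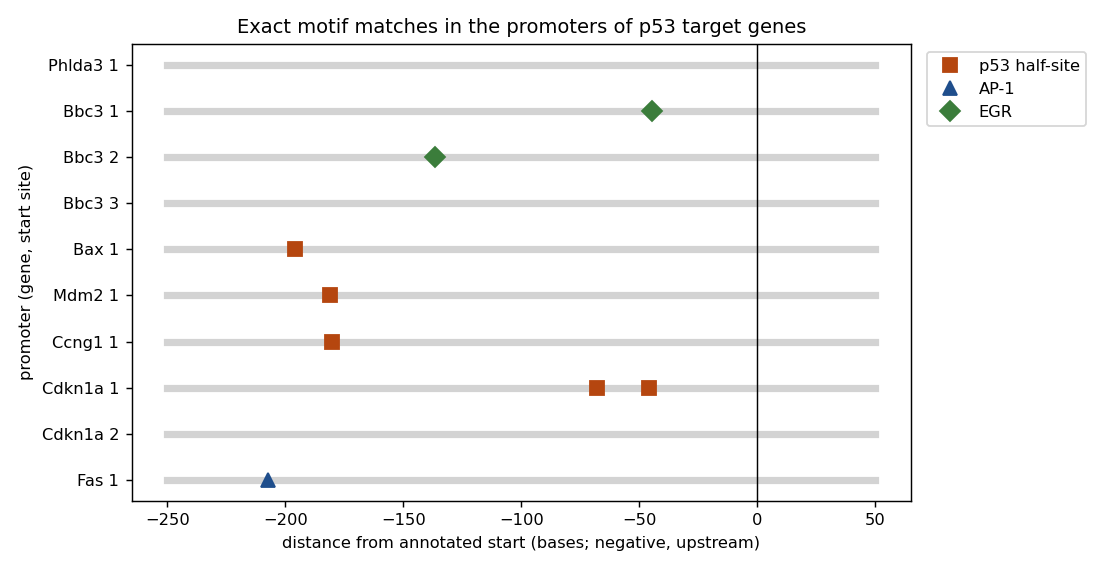
Motif matches in 10 promoters of 7 p53 target genes; the horizontal axis is the distance in bases from the annotated start, each grey bar is 1 promoter (gene and start site), and symbols mark the centre of each match. Among the half-sites, the 2 of Cdkn1a, both in the promoter of its upstream start, lie nearest to a start. Those of Mdm2, Ccng1 and Bax lie more than 180 bases upstream.

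Per kilobase of exon, which allows levels of different genes to be compared, the 10 members spanned a wide range. Bax was the highest, with a mean over the 8 libraries of 151 CPM per kb (119 to 188). Pmaip1 (73.5; 36.9 to 104) and Ccng1 (71.6; 45.4 to 93.7) followed with ranges that overlapped, as did that of Phlda3 (47.6; 36.5 to 58.1). Mdm2 had 29.0 CPM per kb (14.4 to 44.7), Cdkn1a 14.1 (6.95 to 23.5), Trp53inp1 9.42 (5.42 to 13.5), Bbc3 5.55 (3.35 to 7.09) and Zmat3 3.16 (2.44 to 3.72). Fas came last at 0.0715 CPM per kb (0.0311 to 0.13). Neighbours in this order overlapped in range over the 8 libraries, except Bax with Pmaip1 and Zmat3 with Fas.

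The response to 4OHT was compared within each clone, which has its own vehicle libraries, with edgeR's quasi-likelihood test fitted to all 18321 tested genes and adjusted over them. In clone 8, 4 of the 9 tested members were called at an adjusted p under 0.05, 3 higher and 1 lower, against 16.6% of all tested genes (8.00% higher and 8.60% lower). The median log2 fold change of the 9 was 0.41 in clone 8, beside 0.07 over all tested genes, and 6 of the 9 lay above 0, as did 53.7% of all. At an unadjusted p under 0.05, 5 members were higher and 1 was lower, against 33.2% of all tested genes in either direction. In clone 4, 0 of the 9 were called, against 0.0382% of all tested genes; 0 passed an unadjusted p under 0.05 (9.90% of all did), and DESeq2 also called 0. The median in clone 4 was -0.29, beside -0.00 over all tested genes, and 1 of the 9 lay above 0, as did 49.3% of all. These counts and medians describe the list, which was not tested as a set.

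**Figure D2:**
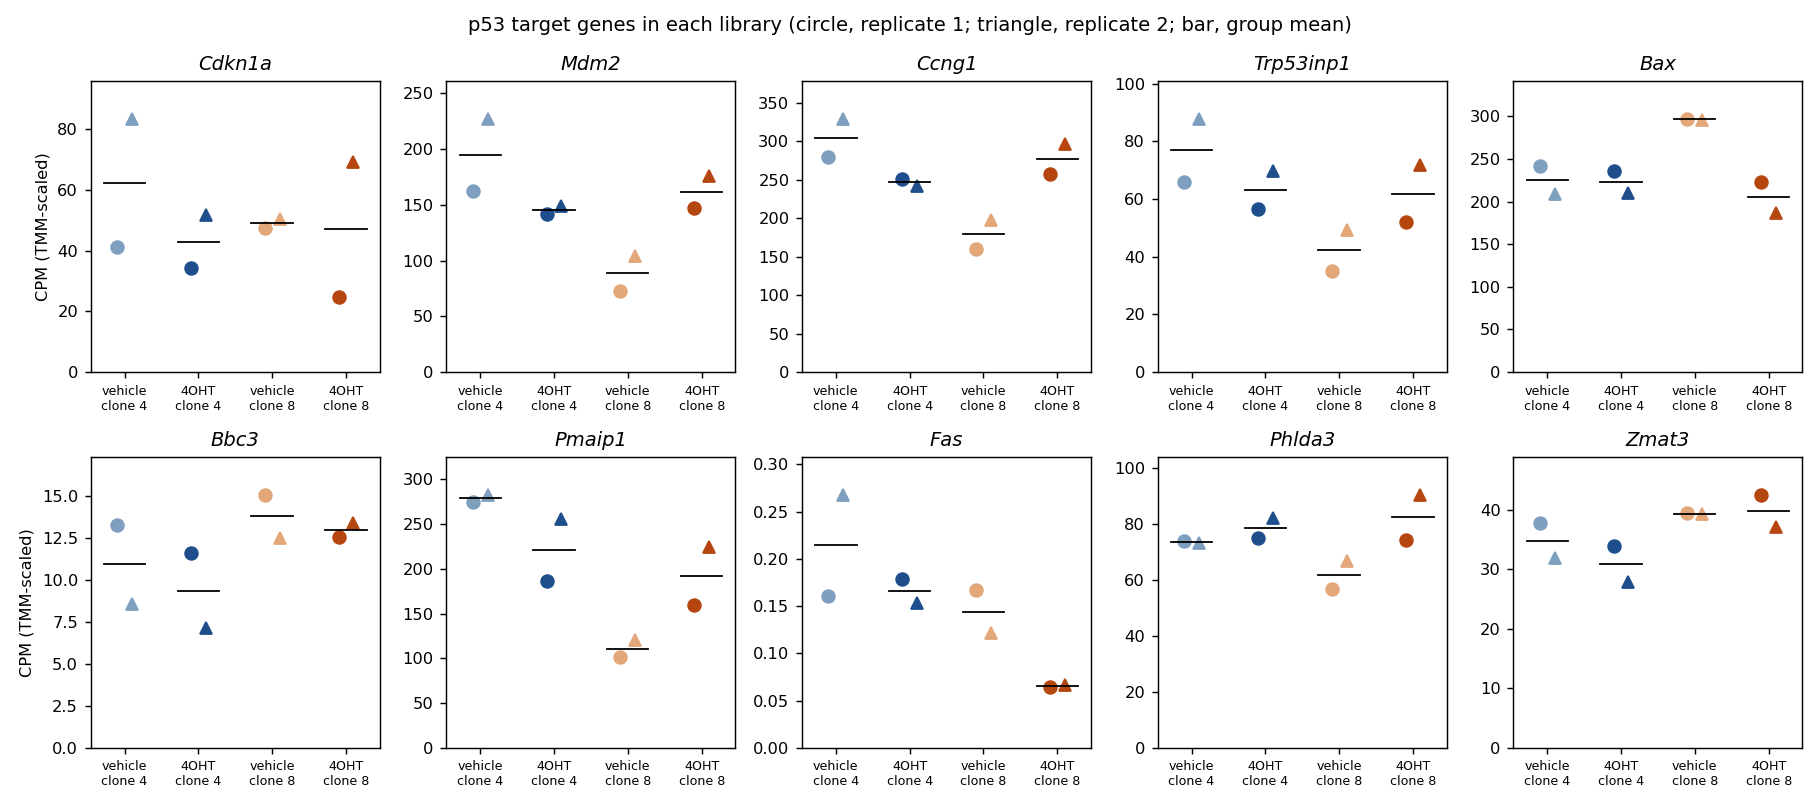
CPM of each of the 10 p53 target genes in the 8 libraries; circles are replicate 1, triangles replicate 2, bars the mean of the 2 libraries of a group, and each vertical axis starts at 0 with its own scale. The vehicle libraries of clone 8 are the lowest for Mdm2, Ccng1, Trp53inp1, Pmaip1 and Phlda3 and the highest for Bax.

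The feedback genes come first. Mdm2 (chromosome 10, 117688875 to 117710758, GRCm38), the ubiquitin ligase that targets p53, measured 162 and 227 CPM in vehicle clone 4, 142 and 149 CPM in 4OHT clone 4, 73.1 and 104 CPM in vehicle clone 8, and 147 and 176 CPM in 4OHT clone 8. The vehicle libraries of clone 8 were thus the lowest of the 8, and both 4OHT libraries of that clone lay above them, near the level of 4OHT clone 4. Its mean in clone 8 was 88.7 ± 22.2 CPM in vehicle and rose to 162 ± 20.4 CPM with 4OHT (SD, n = 2 each), which is 0.87 on the log2 scale (SE 0.20, edgeR adjusted p 0.0239). For clone 4 the means were 194 ± 46.3 CPM in vehicle and 145 ± 5.45 CPM with 4OHT (SD, n = 2 each), and the log2 fold change was -0.42 (SE 0.20, edgeR adjusted p 0.559); both 4OHT libraries lay below both vehicle libraries.

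Ccng1 (chromosome 11, 40748552 to 40755311), which encodes cyclin G1, a partner of the phosphatase PP2A that acts on Mdm2, had its group means in the same order. Its libraries measured 280 and 329 CPM in vehicle clone 4, 251 and 242 CPM in 4OHT clone 4, 160 and 198 CPM in vehicle clone 8, and 257 and 296 CPM in 4OHT clone 8. The vehicle and 4OHT libraries overlapped in neither clone. In clone 8 it rose, with a vehicle mean of 179 ± 27 CPM and a 4OHT mean of 276 ± 27.5 CPM (SD, n = 2 each; log2 fold change 0.63, SE 0.14, edgeR adjusted p 0.02). In clone 4 it was 305 ± 34.6 CPM in vehicle and 246 ± 6.51 CPM in 4OHT (SD, n = 2 each; log2 fold change -0.31, SE 0.14, edgeR adjusted p 0.521).

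Cdkn1a (chromosome 17, 29090976 to 29100727) encodes p21, the inhibitor of cyclin-dependent kinases through which p53 arrests the cell cycle. It measured 41.2 and 83.3 CPM in vehicle clone 4, 34.1 and 51.7 CPM in 4OHT clone 4, 47.4 and 50.4 CPM in vehicle clone 8, and 24.7 and 69.3 CPM in 4OHT clone 8. The spread within a group was as large as any difference between groups, and the groups of each clone overlapped: the lowest and the second highest of the 8 values were both 4OHT clone 8. The log2 fold change was -0.54 in clone 4 (SE 0.45, edgeR adjusted p 0.785). In clone 8 it was -0.06 (SE 0.45, edgeR adjusted p 0.944), and 0.06 with library totals in place of TMM. Its standard error of 0.45, against 0.20 for Mdm2, sets how small a change could have been detected. An annotated transcript on the opposite strand, which is not a row of the table, overlaps 273 of its exonic bases.

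Among the genes for death through mitochondria, Pmaip1 and Bax changed in opposite directions in clone 8. Pmaip1 (chromosome 18, 66458533 to 66465565) encodes Noxa, a BH3-only protein that binds Mcl1 and releases its hold on the pore formers. It measured 275 and 283 CPM in vehicle clone 4, 187 and 256 CPM in 4OHT clone 4, 101 and 120 CPM in vehicle clone 8, and 160 and 224 CPM in 4OHT clone 8. The clone 8 mean was 110 ± 13.4 CPM in vehicle and rose to 192 ± 45.3 CPM with 4OHT (SD, n = 2 each; log2 fold change 0.80, SE 0.19, edgeR adjusted p 0.0254), with no overlap. In clone 4 the 4OHT libraries lay below the vehicle libraries, with a log2 fold change of -0.34 (SE 0.19, edgeR adjusted p 0.637).

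Bax (chromosome 7, 45461697 to 45466898), which forms the pore in the outer mitochondrial membrane, measured 242 and 209 CPM in vehicle clone 4, 236 and 210 CPM in 4OHT clone 4, 297 and 296 CPM in vehicle clone 8, and 223 and 187 CPM in 4OHT clone 8. The vehicle libraries of clone 8 stood above the other 6, which covered one common range. In clone 8 it fell, with a vehicle mean of 296 ± 0.845 CPM and a 4OHT mean of 205 ± 25.7 CPM (SD, n = 2 each; log2 fold change -0.53, SE 0.13, edgeR adjusted p 0.0262). With library totals in place of TMM the log2 fold change was -0.41 and the call was lost (edgeR adjusted p 0.069). For clone 4 the value was -0.02 (SE 0.13, edgeR adjusted p 0.986), and 0.00047 with library totals. A short stretch of 192 exonic bases is shared with another annotated gene, which held 0 counts in all libraries.

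Bbc3 (chromosome 7, 16308393 to 16318205) encodes Puma, another BH3-only protein. It measured 13.3 and 8.6 CPM in vehicle clone 4, 11.6 and 7.12 CPM in 4OHT clone 4, 15.1 and 12.5 CPM in vehicle clone 8, and 12.6 and 13.4 CPM in 4OHT clone 8. The groups of each clone overlapped. The log2 fold change was -0.08 in clone 8 (SE 0.29, edgeR adjusted p 0.87), 0.04 with library totals, and -0.23 in clone 4 (SE 0.29, edgeR adjusted p 0.871). Fas (chromosome 19, 34290666 to 34327772), the death receptor of the list, had 4 to 11 counts in a library: 0.161 and 0.268 CPM in vehicle clone 4, 0.179 and 0.153 CPM in 4OHT clone 4, 0.167 and 0.121 CPM in vehicle clone 8, and 0.0642 and 0.0667 CPM in 4OHT clone 8. At so few counts it was below the filter, and no fold change is given.

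Trp53inp1 (chromosome 4, 11156431 to 11174379) encodes a nuclear protein that promotes p53-dependent apoptosis. It measured 66 and 87.7 CPM in vehicle clone 4, 56.4 and 69.7 CPM in 4OHT clone 4, 35.1 and 49.2 CPM in vehicle clone 8, and 52 and 71.6 CPM in 4OHT clone 8. As for Mdm2, the vehicle libraries of clone 8 were the lowest, and both 4OHT libraries of that clone lay above them, but the gene was not called in clone 8 (log2 fold change 0.55, SE 0.23, edgeR adjusted p 0.128) or in clone 4 (-0.29, SE 0.23, edgeR adjusted p 0.768).

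Phlda3 (chromosome 1, 135766119 to 135769136), whose product keeps the survival kinase Akt from the membrane, measured 73.9 and 73.4 CPM in vehicle clone 4, 75.1 and 82.2 CPM in 4OHT clone 4, 56.8 and 66.9 CPM in vehicle clone 8, and 74.3 and 90.5 CPM in 4OHT clone 8. It was the only tested member with all 4 4OHT libraries above all 4 vehicle libraries, by a narrow margin; 3.42% of all tested genes showed this, and 0 members showed the reverse (5.58% of all). Its log2 fold change was 0.41 in clone 8 (SE 0.15, edgeR adjusted p 0.0821) and 0.09 in clone 4 (SE 0.15, edgeR adjusted p 0.898), so it was called in neither. With library totals in place of TMM it was called in clone 8 (edgeR adjusted p 0.0413). Zmat3 (chromosome 3, 32334792 to 32366014), a zinc finger protein that binds RNA, measured 37.7 and 31.9 CPM in vehicle clone 4, 33.9 and 27.9 CPM in 4OHT clone 4, 39.4 and 39.2 CPM in vehicle clone 8, and 42.5 and 37.1 CPM in 4OHT clone 8. Its groups overlapped within each clone. The log2 fold change was 0.02 in clone 8 (SE 0.17, edgeR adjusted p 0.957; -0.0030 with RLE size factors) and -0.17 in clone 4 (SE 0.17, edgeR adjusted p 0.817).

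**Figure D3:**
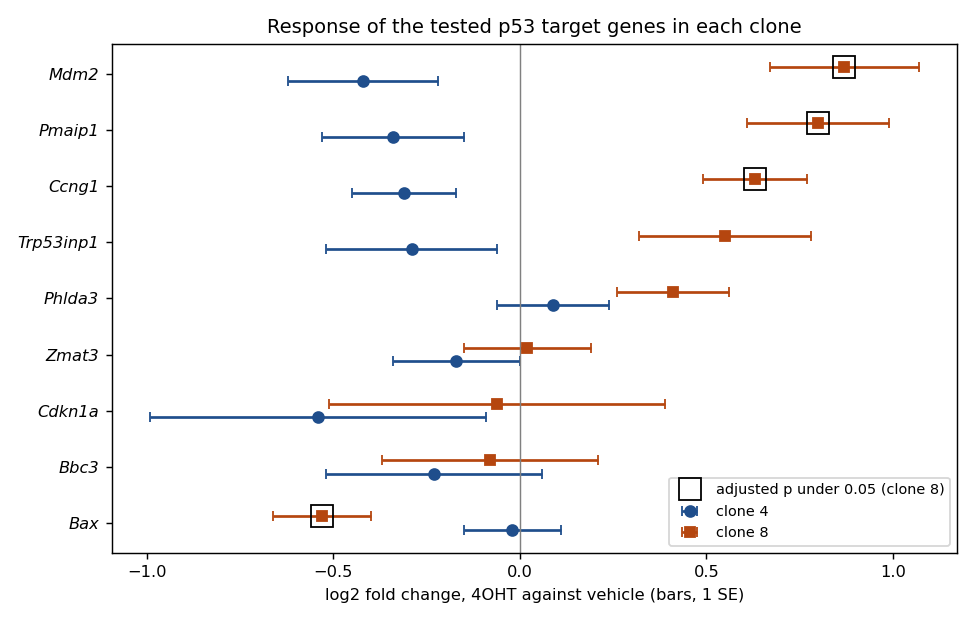
Log2 fold change of 4OHT against vehicle for the 9 tested p53 target genes, with squares for clone 8 and circles for clone 4, bars of 1 standard error and black frames around values with an adjusted p under 0.05. The framed values are Mdm2 (0.87), Pmaip1 (0.80), Ccng1 (0.63) and Bax (-0.53), all in clone 8.

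In clone 8, 5 tested members (Mdm2, Ccng1, Pmaip1, Trp53inp1 and Phlda3) had both 4OHT libraries above both vehicle libraries, a pattern shown by 31.7% of all tested genes, and Bax had both below, as did 28.3%. In clone 4, Phlda3 had both above (23.7% of all tested genes), and Mdm2, Ccng1 and Pmaip1 had both below (23.8%). The same 5 genes set the vehicle groups apart: both vehicle libraries of clone 8 lay below both of clone 4 for Mdm2, Ccng1, Pmaip1, Trp53inp1 and Phlda3 (29.2% of all tested genes), and above them for Bax and Zmat3 (29.7%). After 4OHT, 0 tested members were lower in both libraries of clone 8 than in both of clone 4 (24.2% of all tested genes), and Ccng1, Bbc3 and Zmat3 were higher (23.7%). For Mdm2 the means of clone 4 and clone 8 were 194 and 88.7 CPM in vehicle and 145 and 162 CPM after 4OHT; for Zmat3 they were 34.8 and 39.3 CPM in vehicle and 30.9 and 39.8 CPM after 4OHT.

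The 4 calls in clone 8 did not all hold when a library was left out, a fit that also has fewer libraries to estimate the spread. Their log2 fold changes in clone 8 kept their sign in these fits. The ranges were 0.61 to 1.11 for Mdm2, 0.46 to 0.76 for Ccng1, 0.53 to 1.02 for Pmaip1 and -0.67 to -0.41 for Bax. Without vehicle clone 8 replicate 1, or without 4OHT clone 8 replicate 2, 0 members were called; without vehicle clone 8 replicate 2, Mdm2 and Ccng1 were called. The call of Pmaip1 was lost in 5 of the 8 fits that left out a library, also without either vehicle library of clone 4 (edgeR adjusted p 0.0549 and 0.0560), that of Bax in 3, and those of Mdm2 and Ccng1 in 2 each. Fitted on the 4 libraries of clone 8 alone, 0 were called (edgeR adjusted p 0.0693 for Mdm2, 0.0794 for Ccng1, 0.0748 for Pmaip1 and 0.0732 for Bax). The share of all genes called in that fit is not given here, so this count cannot be set against it. The markers of other layers moved along the same contrast. In clone 8, 5 of 12 visceral endoderm markers fell (median log2 fold change -1.12), 7 of 8 extraembryonic ectoderm markers rose (median 1.77), and 4 of 8 epiblast markers fell (median -0.53). Over all tested genes, 8.60% fell and 8.00% rose. In clone 4 none of the visceral endoderm markers was called by edgeR (0.0382% of all tested genes). Their median was 1.79, with 11 of 12 at an unadjusted p under 0.05 (9.90% of all). The epiblast markers had a median of -0.24 in clone 4, with 0 called and 4 of 8 lower at that unadjusted level. The part of these layers, of depth and of the mitochondrial share in the changes of the p53 targets was not tested, and in pooled tissue fewer cells of a type and less RNA per cell cannot be told apart.

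**Figure D4:**
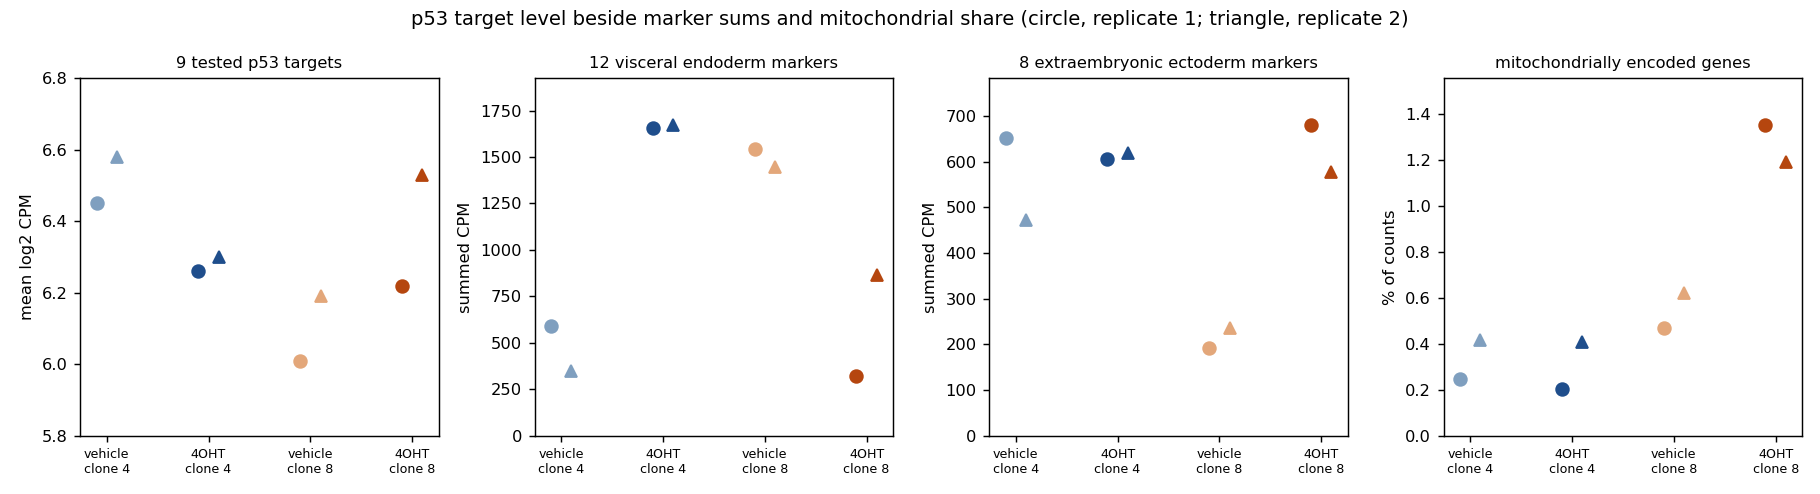
The mean log2 CPM of the 9 tested p53 target genes in each library (left) beside the summed CPM of visceral endoderm and extraembryonic ectoderm markers and the percentage of counts from mitochondrially encoded genes; circles are replicate 1 and triangles replicate 2, and the first axis does not start at 0. Vehicle clone 8 has the lowest member means (6.01 and 6.19) and the lowest extraembryonic ectoderm sums, and 4OHT clone 8 has the highest mitochondrial shares.

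A call in one clone does not show that the clones differ, so the difference of the responses, clone 8 minus clone 4, was tested as an interaction. Of the 9 tested members, 1 was called, Ccng1, against 2.83% of all tested genes (1.08% higher and 1.75% lower). Its response in clone 8 was higher by 0.93 on the log2 scale (SE 0.20, edgeR adjusted p 0.0462). Mdm2 had the largest difference of the 9, 1.28 (SE 0.29, edgeR adjusted p 0.0506), followed by Pmaip1 at 1.13 (SE 0.27, edgeR adjusted p 0.0604) and Trp53inp1 at 0.84 (SE 0.32, edgeR adjusted p 0.173); none of these passed the threshold. Bax had a difference of -0.51 (SE 0.18, edgeR adjusted p 0.145). Phlda3 (0.32, SE 0.21), Cdkn1a (0.48, SE 0.64), Zmat3 (0.19, SE 0.24) and Bbc3 (0.14, SE 0.41) had adjusted p-values of 0.387 to 0.863. The median difference was 0.48, beside 0.05 over all tested genes, and 8 of the 9 lay above 0 (52.6% of all). At an unadjusted p under 0.05, 5 members passed, 4 higher and 1 lower, against 22.7% of all. DESeq2 called 3, Mdm2, Ccng1 and Pmaip1. The share of all genes that DESeq2 called is not given here, and the 2.83% above is that of edgeR. The call of Ccng1 was lost in 7 of the 8 fits that left out a library and kept without 4OHT clone 8 replicate 1.

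Over both clones, with clone as a term, 0 of the 9 were called by edgeR, against 0.00546% of all tested genes, or 1 gene; 0 passed an unadjusted p under 0.05 (16.9% of all did) and DESeq2 called 0. The log2 fold changes ran from -0.30 (SE 0.33) for Cdkn1a to 0.25 (SE 0.12) for Phlda3, with a median of 0.13 and 5 of the 9 above 0 (54.2% of all). Mdm2 measured 142 ± 67.8 CPM in vehicle and 154 ± 15.4 CPM in 4OHT (SD, n = 4 each), and Pmaip1 195 ± 97.9 and 207 ± 41.9 CPM (SD, n = 4 each). For these genes the spread between the vehicle groups of the clones exceeded the difference between the conditions.

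The members did not vary as one block across the libraries. Over the 8 libraries, the Pearson correlation of log2 CPM among the 36 pairs of tested members had a median of -0.04 and ran from -0.90 to 0.99, and 12 pairs were above 0.5. Mdm2 and Ccng1 had the highest value, 0.99, and Mdm2 with Trp53inp1 (0.96) and Pmaip1 (0.90) were also high. Bax ran against them, at -0.85 with Mdm2 and -0.90 with Phlda3, whereas Bbc3 and Zmat3 went together (0.89). Cdkn1a had 0.51 with Trp53inp1 and 0.32 with Mdm2. These libraries fall into 4 groups and share depth and tissue makeup within a group, so the values describe this set of libraries.

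The heat map sets 24 other p53 targets beside the members. In clone 8, 4 of these 24 rose and 3 fell by edgeR, against 8.00% and 8.60% of all tested genes. Their median log2 fold change there was 0.27, beside 0.07 over all. In clone 4, 0 were called by edgeR (0.0382% of all tested genes), and 0 passed an unadjusted p under 0.05 (9.90% of all). The median in clone 4 was -0.16. Perp, a membrane protein of desmosomes that p53 uses in apoptosis, had the lowest p-value. It measured 95.8 and 95.2 CPM in vehicle clone 4, 89.5 and 83 CPM in 4OHT clone 4, 40.2 and 41.4 CPM in vehicle clone 8, and 101 and 111 CPM in 4OHT clone 8. Its replicates lay close together, and the vehicle libraries of clone 8 again stood far below the rest (clone 8 log2 fold change 1.38, SE 0.12, edgeR adjusted p 0.00423; difference of the responses 1.52, SE 0.17, edgeR adjusted p 0.0136). Sfn, or 14-3-3 sigma, which holds cells in G2, rose from a mean of 53.1 to 123 CPM in clone 8 (1.21, SE 0.21, edgeR adjusted p 0.0113) and also had a called difference (1.56, SE 0.30, edgeR adjusted p 0.0386). Polk, a DNA polymerase that copies past lesions, and Plk3, a stress-responsive kinase, rose by 0.97 and 1.95 on the log2 scale in clone 8 (edgeR adjusted p 0.0197 and 0.0247).

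The targets that fell in clone 8 were Rps27l, Fbxw7 and Ei24. Rps27l, a ribosomal protein paralog, measured 540 and 565 CPM in vehicle clone 4, 475 and 492 CPM in 4OHT clone 4, 841 and 782 CPM in vehicle clone 8, and 474 and 420 CPM in 4OHT clone 8. As with Bax, vehicle clone 8 stood above the other 6 libraries (clone 8 log2 fold change -0.86, SE 0.10, edgeR adjusted p 0.00699; difference -0.67, SE 0.14, edgeR adjusted p 0.0484). Fbxw7, a ubiquitin ligase subunit, fell by 0.79 and Ei24, a protein of the endoplasmic reticulum, by 0.72 on the log2 scale (edgeR adjusted p 0.0266 and 0.03).

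**Figure D5:**
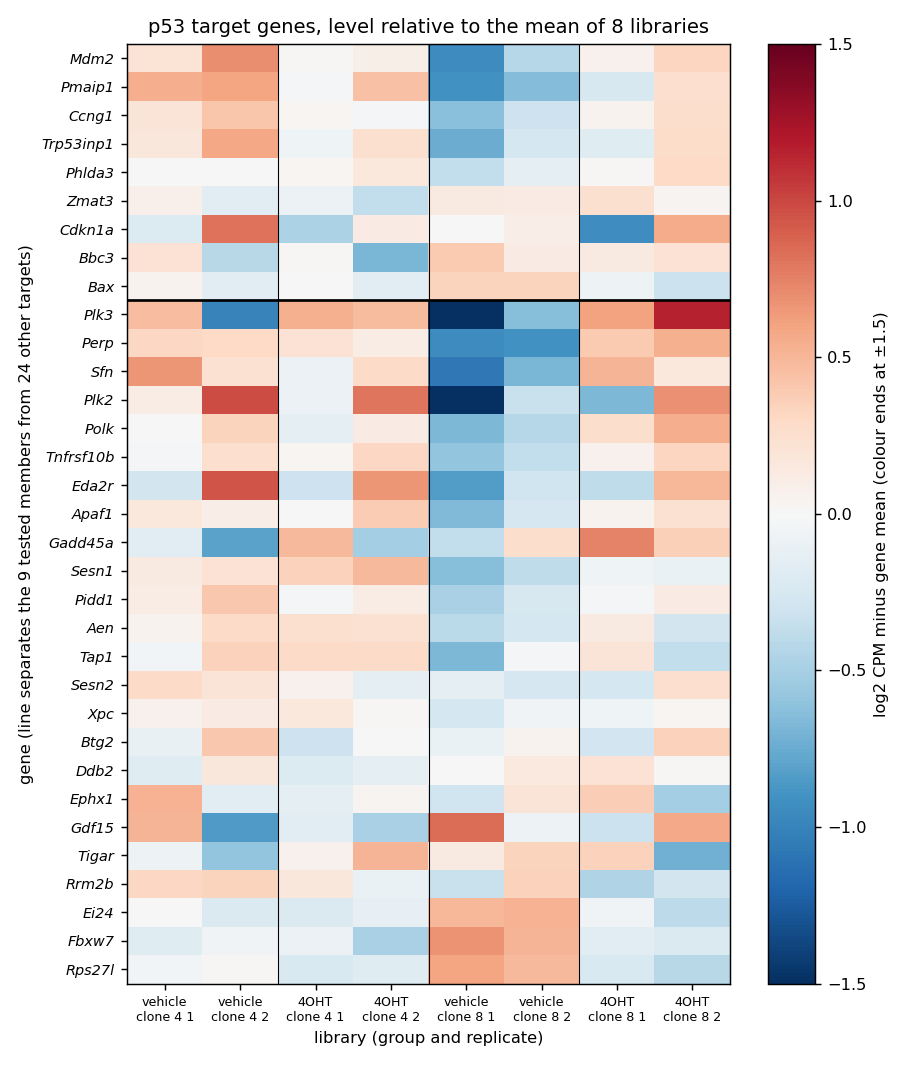
Log2 CPM minus the gene's mean over the 8 libraries, for the 9 tested members (above the line) and 24 other p53 targets (below it), with 1 column per library and colours that end at 1.5 in either direction. The vehicle clone 8 columns are low for Mdm2, Pmaip1, Ccng1, Perp and Sfn and high for Bax, Ei24, Fbxw7 and Rps27l.

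Of p53 and its regulators, 13 of 14 were tested, and 2 rose and 1 fell in clone 8, against 8.00% and 8.60% of all tested genes. Trp53 itself measured 336 and 401 CPM in vehicle clone 4, 325 and 305 CPM in 4OHT clone 4, 399 and 321 CPM in vehicle clone 8, and 283 and 316 CPM in 4OHT clone 8. It was not called, with log2 fold changes of -0.27 in clone 8 (SE 0.14, edgeR adjusted p 0.212) and -0.23 in clone 4 (edgeR adjusted p 0.68). Mdm4, the partner of Mdm2 that covers the activation domain of p53, measured 41.7 and 43.4 CPM in vehicle clone 8 and 66.9 and 68.6 CPM in 4OHT clone 8, against 54.1 and 55.4 CPM in vehicle and 49.9 and 42.1 CPM in 4OHT clone 4. It rose in clone 8 (0.67, SE 0.14, edgeR adjusted p 0.0159), and its responses differed between the clones (0.92, SE 0.19, edgeR adjusted p 0.0452). Trp53bp1, a DNA repair scaffold that binds p53, rose by 0.72 (SE 0.17, edgeR adjusted p 0.0226), and Sirt1, a deacetylase that acts on p53, fell by 1.19 on the log2 scale (SE 0.25, edgeR adjusted p 0.0164). In clone 4, 0 of the 13 were called by edgeR (0.0382% of all tested genes), with 1 at an unadjusted p under 0.05 (9.90% of all).

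Genes that act beside the members in apoptosis and arrest were also listed. Of 12 other Bcl2 family genes, 1 rose and 2 fell in clone 8 (8.00% and 8.60% of all tested genes), with a median of -0.16, beside 0.07 over all. Mcl1, the survival factor that Pmaip1 binds, measured 122 and 132 CPM in vehicle clone 8 and 84.8 and 59.7 CPM in 4OHT clone 8 (-0.81, SE 0.18, edgeR adjusted p 0.0194), and its 4 libraries of clone 4 lay between 59 and 78.2 CPM. Bcl2l11, or Bim, a BH3-only gene, rose by 0.53 (edgeR adjusted p 0.0427), and Bad fell by 0.67 on the log2 scale (edgeR adjusted p 0.044). Of 5 other inhibitors of cyclin-dependent kinases, 0 were called in clone 8 by edgeR, with 1 at an unadjusted p under 0.05, and 0 in clone 4, with 0 at that level. Over all tested genes, 16.6% were called in clone 8 and 0.0382% in clone 4, and 33.2% and 9.90% had an unadjusted p under 0.05. Cdkn1b, which encodes p27, measured 9.47 and 10.6 CPM in vehicle clone 4, 8.07 and 4.31 CPM in 4OHT clone 4, 20.8 and 11.7 CPM in vehicle clone 8, and 9.23 and 10.7 CPM in 4OHT clone 8 (clone 8 log2 fold change -0.71, SE 0.34, edgeR adjusted p 0.185). Cdkn2d had -0.62 in clone 8 (SE 0.20, edgeR adjusted p 0.0663).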

How the data were processed

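RNA was sequenced from 8 pools of 10 epiblasts, with libraries made from 7 ng of RNA by a kit for low input, as the labels' protocols state. Raw counts of reads for each Ensembl gene, with no normalization, were deposited by the authors in 1 table, as its whole-number values show. bcl2fastq 2.19.1, STAR 2.5.3a and the build mm10 are named, per the submitters' processing notes; the counting program, the annotation and the use of strand are not given in the sources used here. Identifiers were matched to symbols for 52403 of 52636 genes.

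Counts were tested with edgeR 4.0.16 in R 4.3.3: filterByExpr over the 4 groups (minimum count 10), TMM, glmQLFit and glmQLFTest on the group means, with contrasts within each clone and their difference, and an additive fit of clone and treatment over both clones. P-values were adjusted by Benjamini-Hochberg over 18321 genes. SE is the size of a log2 fold change divided by the square root of F. Log2 CPM used a prior count of 2. Coordinates and exonic lengths come from the GENCODE annotation of GRCm38 (mm10). The procedure was tested on simulated data.

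All 10 members are named. Of the other lists, genes called in clone 8, clone 4 or the difference are named, at most 8 per list by lowest p, or the 2 of highest mean level where none was called; Trp53, Mdm4 and Cdkn1b are named in any case. The marker lists are given by their sums with a few names. The members and lists were chosen with earlier results of these data known. Alternatives were RLE size factors, library totals, other filters, DESeq2 1.42.0 (adjusted p missing for 2132 genes in clone 8), a replicate block, a stricter threshold, fits of 1 clone, other fits over both clones and leaving out each library; turning off the legacy option of glmQLFit was added after seeing the data.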

Additional observations from a re-analysis of the deposited data

Results flagged for a closer look

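The response of Ccng1 differed between the clones by the test of the difference itself. Clone 8 minus clone 4 was 0.93 on the log2 scale (SE 0.20, edgeR adjusted p 0.0462). The response was 0.63 in clone 8 and -0.31 in clone 4. Both 4OHT libraries lay above both vehicle libraries in clone 8 and below them in clone 4. The adjusted p was close to the threshold, leaving out 1 library ended the call for 7 of the 8 libraries, and the part of the differing marker sums was not tested. A search for single libraries that lie far from the rest of their condition covered 22 sets of values and found 0. Each set held the 4 libraries of a condition over both clones, so a gap between the clones could hide such a library.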

How the results depend on the processing

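Within clone 8 the count of 4 members called became 0 at an adjusted p under 0.01 and 0 in the fit of clone 8 alone, and 0 to 5 when 1 library was left out. It was 4 with RLE size factors, library totals, a minimum of 10 counts in every library, DESeq2 and the legacy option off. It was 5 without an expression filter, which added Trp53inp1 (edgeR adjusted p 0.0102). In that fit the adjusted p-values of the called members fell at similar fold changes, and the cause was not tested. For Mdm2 in clone 8, the log2 fold change was 0.87 with the filter and 0.89 without it (edgeR adjusted p 0.0239 and 1.5e-07). Library totals lost Bax, gained Phlda3, and moved the median of all tested genes by 0.12. The counts in this section are not set against the share of all genes called in each fit. The count for the difference, 1, was 0 at an adjusted p under 0.01, 2 with library totals, 4 without a filter, 3 with a minimum of 10 counts in every library, 3 with DESeq2 and 0 to 3 when 1 library was left out. The counts of 0 in clone 4 and over both clones were 0 under all alternatives run.

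Same-numbered libraries deviated together with a correlation of 0.095 in clone 4 and -0.010 in clone 8, so the numbers were not taken to pair samples. With the replicate number as a block, 5 members were called in clone 8 (Trp53inp1 added, edgeR adjusted p 0.0301) and 3 for the difference (Mdm2 0.0407, Ccng1 0.045 and Pmaip1 0.0433); the clone 4 and both-clone counts stayed at 0. The block gave Cdkn1b a difference of 0.11.

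No log2 fold change that turned sign belonged to a called result. With library totals, Bax in clone 4 had 0.00047, Bbc3 in clone 8 0.044, Cdkn1a in clone 8 0.056, the difference of Cdkn1b 0.10 and that of Trp53 0.069. Cdkn1b's difference was 0.0059 without a filter, and 0.0083 both with a minimum of 10 counts and with the legacy option off. Zmat3 in clone 8 had -0.0030 with RLE size factors and with DESeq2, and -0.011 in clone 8 alone. With 1 library left out, the clone 8 ranges were -0.24 to 0.032 for Bbc3, -0.99 to 0.50 for Cdkn1a and -0.086 to 0.11 for Zmat3. The clone 4 ranges were -0.12 to 0.097 for Bax, -0.62 to 0.13 for Bbc3 and -0.96 to 0.061 for Cdkn1a. For the difference they were -0.24 to 0.54 for Bbc3, -0.45 to 1.04 for Cdkn1a, -0.40 to 0.51 for Cdkn1b and -0.22 to 0.099 for Trp53. Over both clones they were -0.0096 to 0.28 for Ccng1, -0.027 to 0.43 for Mdm2 and -0.055 to 0.28 for Trp53inp1. Where a group was left with 1 library, that library was assumed to vary like the other groups. The cause of these shifts was not tested. With 2 libraries per group and 4 to 11 counts, a change of Fas was not detectable at this depth.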

Other observations

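Of 16 genes of G2 and mitosis, which p53 lowers when it arrests the cycle, 2 rose and 1 fell in clone 8 by edgeR, against 8.00% and 8.60% of all tested genes, and the median log2 fold change was 0.04, beside 0.07 over all. These values are close to those of all genes. Kif20a, a motor of late mitosis, had means of 165 CPM in vehicle and 277 CPM in 4OHT (0.75, SE 0.17, edgeR adjusted p 0.0204), and Bub1, a spindle checkpoint kinase, 121 and 186 CPM (0.62, SE 0.18, edgeR adjusted p 0.0471). Birc5, or survivin, fell from 346 to 235 CPM (-0.56, SE 0.14, edgeR adjusted p 0.0272). In clone 4, 0 of the 16 were called by edgeR (0.0382% of all tested genes), with 1 at an unadjusted p under 0.05 (9.90% of all). Of 5 genes of the death receptor pathway beside Fas, 0 rose and 1 fell in clone 8, against 8.00% and 8.60% of all tested genes. Casp8, the initiator caspase, fell from 7.89 and 7.95 CPM to 4.65 and 3.85 CPM (-0.90, SE 0.22, edgeR adjusted p 0.0283). Fasl, the ligand of Fas, had 0.286 ± 0.405 CPM in vehicle and 4.05 ± 4.22 CPM in 4OHT clone 8 (SD, n = 2 each; edgeR adjusted p 0.0519), so that its 4OHT libraries differed by more than their mean; in clone 4 it had 4.20 ± 1.93 and 2.04 ± 0.521 CPM (SD, n = 2 each).

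The tested genes outside the list whose log2 CPM over the 8 libraries was most like the mean of the standardised levels of the 9 members, among genes above the median level, were Heatr1 (Pearson r 0.972), Mtrex (0.961), Naa25 (0.957), Iqgap1 (0.952) and Pdpr (0.946). The members themselves had values from -0.713 for Bax to 0.916 for Ccng1. These 5 genes were picked as the highest of many over 8 libraries that fall into 4 groups, and the values are a description.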
